A study of Mus musculus with 20 samples.

Results

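The genes described here encode the machinery of oxidative phosphorylation in the mouse cerebral cortex, from both the mitochondrial and the nuclear genome. They were chosen by symbol from the table of messenger RNA, as every gene whose symbol begins with mt-, with Nduf followed by a, b, c, s or v, with Uqcr, with Cox4 to Cox8, or with Atp5. This gave 101 of 21949 genes, 13 encoded by mitochondrial DNA and 88 by nuclear DNA. The nuclear-encoded genes comprise 36 subunits of complex I, 8 of complex III, 20 of complex IV and 15 of complex V, 7 assembly factors of complex I (Ndufaf genes) and 2 genes, Atp5s and Atp5sl, that carry an Atp5 name without being core subunits. Complex II and cytochrome c1 lie outside these names. All 13 mitochondrial genes and 87 of the 88 nuclear-encoded genes reached a mean of 0.5 FPKM (fragments per kilobase of transcript, scaled to the mapped fragments of a library) and were tested. Cox8c, listed at 0 in every library, was not.

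Total RNA of dissected cortex was sequenced from mice on a (C57BL/6 x C3H)F1 background in 4 groups of 5 libraries. TG10M and TG03M are PS19 mice aged 10 and 3 months, which carry Tg(Prnp-MAPT*P301S)PS19Vle, a human tau transgene with the P301S mutation driven by the prion protein promoter. WT10M and WT03M are wild-type mice of the same 2 ages. The labels number the replicates without saying that each is a separate animal, so p-values measure the spread between these samples. In bulk tissue, fewer cells of a type and less RNA per cell cannot be told apart.

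The respiratory chain passes electrons from NADH through complex I, complex III and complex IV to oxygen, pumps protons across the inner mitochondrial membrane, and drives complex V, the ATP synthase. Complexes I, III, IV and V are mosaics: a few hydrophobic core subunits are encoded and translated in the mitochondrion, and all the others are made from nuclear genes and imported. The mitochondrial genome is transcribed as long polycistronic RNAs from both strands and cut into single messages, so its genes share promoters but differ in processing and stability, and neurons depend heavily on this pathway for their ATP.

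The libraries held about 22300000 to 30100000 fragments, as estimated from the steps between low FPKM values. They fall into 2 sets that cross the groups and that no label names. Hsp90aa1, a cytosolic chaperone gene, was at 13.9 to 20.5 FPKM in 7 libraries and at 532 to 687 FPKM in the other 13. A pair of noncoding RNAs split the same way: Gm26917 was at 3.81 to 17.3 FPKM in the 7 libraries and 289 to 554 FPKM in the 13, and LNC_000226 at 1251 to 5676 FPKM and 21156 to 96107 FPKM. The low set holds TG10M replicates 1 and 5, TG03M replicates 2 to 5, WT10M replicate 5 and no WT03M library. Within it, TG10M replicates 1 and 5 and WT10M replicate 5 also lie apart from the other 17 libraries on the first principal component of the genes outside the pathway (23.8% of their variance). Prnp, which gives the transgene its promoter, was above the wild type in TG10M by 0.83 ± 0.06 log2 units (adjusted p = 2.83e-07) and in TG03M by 0.76 ± 0.06 (adjusted p = 1.25e-06). Results that rest on the sets are given with and without them, and the part of these RNAs in them was not tested. Set and genotype can hardly be told apart at 3 months, where 4 of 5 TG03M libraries and 0 of 5 WT03M libraries are low.

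Levels among the mitochondrial genes spanned 3 orders of magnitude on the FPKM scale, which corrects for length. The message of mt-Co1, the catalytic subunit of complex IV, averaged 8407 FPKM over the 20 libraries and that of mt-Atp8, a small membrane subunit of ATP synthase, 8451 FPKM. The complex I subunit mt-Nd1 averaged 1451 FPKM and mt-Cytb, cytochrome b of complex III, 689 FPKM. The further complex I subunits mt-Nd2, mt-Nd4, mt-Nd5 and mt-Nd6 averaged 379, 308, 214 and 266 FPKM. Against this, mt-Co2 and mt-Co3 of complex IV averaged only 5.05 and 7.85 FPKM and mt-Atp6 of complex V 6.10 FPKM, although mt-Atp8 and mt-Atp6 overlap on the genome and come from 1 precursor. These 3 genes, and also mt-Nd3 and mt-Nd4l, have a copy without a mismatch over 98.3 to 99.9% of their length in the nuclear genome, in a block annotated as unprocessed pseudogenes on the minus strand of chromosome 1. The copied genes did not all read low. In WT10M, mt-Nd3 was at 964 to 1086 FPKM in replicates 1 to 4 and at 1518 FPKM in replicate 5. In TG10M, mt-Nd4l was at 13.3 to 17.3 FPKM except in replicate 3, at 39.6 FPKM. How reads that fit both places were assigned is not given in the sources used here, so the values of these 5 genes are uncertain.

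The start of mt-Co2 (chrM:7013-7072, plus strand, GRCm38) and of its copy Gm28661 (chr1:24615506-24615565, minus strand), taken from the GENCODE M21 transcripts, is shown because no read from such a stretch can tell the 2 loci apart.
mt-Co2: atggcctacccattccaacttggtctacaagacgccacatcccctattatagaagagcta
Gm28661: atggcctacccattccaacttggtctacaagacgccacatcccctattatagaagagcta
Over 681 aligned bases the pair had 0 mismatches. The whole of mt-Atp8 (chrM:7766-7969, plus strand), which has no annotated copy, is shown with the 43 bases it shares with the start of mt-Atp6 in capitals.
mt-Atp8: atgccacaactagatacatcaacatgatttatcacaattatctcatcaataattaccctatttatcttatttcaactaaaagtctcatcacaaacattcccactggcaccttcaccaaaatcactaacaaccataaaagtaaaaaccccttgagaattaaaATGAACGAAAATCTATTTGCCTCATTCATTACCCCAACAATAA
It is 204 bases long, so a fragment of it can reach into mt-Atp6 or upstream. Of the other genes, mt-Co1 has a copy (Gm29216) over 31.3% of its length with 1 mismatch, and mt-Nd4 has an exact copy (Gm28439) over 63.6%. Of all their stretches of 50 bases, 51.1% in mt-Co1 and 62.2% in mt-Nd4 occur without a mismatch in some transcript from outside the mitochondrial genome, so part of their reads is uncertain as well. Segments of mt-Nd2 and mt-Nd5 have more distant copies, at 96.7 and 95.3% identity. mt-Nd1, mt-Nd6 and mt-Cytb have no annotated copy. The results below turn mainly on the 8 genes without a full annotated copy. Of these, mt-Nd1, mt-Nd6, mt-Cytb and mt-Atp8 share no such stretch with an annotated transcript. However, mt-Atp8 lies between mt-Co2 and mt-Atp6, whose copies are at chr1:24614885-24615565 and chr1:24613974-24614651. Only annotated transcripts were searched. Whether the bases between these 2 copies match mt-Atp8 was not examined, so its values are uncertain too.

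The mitochondrially encoded messages were more abundant in transgenic than in wild-type cortex at 3 months, while the sum of the nuclear-encoded ones was similar in all groups. The 13 mitochondrial genes summed to 19610.1, 27901, 22939, 38464 and 32759 FPKM in TG03M replicates 1 to 5, against 13848, 14726, 14431, 13564 and 14512 FPKM in WT03M. Every TG03M library lay above every WT03M library, and TG03M replicate 1, the library of the high-Hsp90aa1 set, was the lowest of its group. At 10 months the sums were 25471, 19217, 28615, 20645 and 25987 FPKM in TG10M and 15727, 16124, 16315, 14254 and 30045 FPKM in WT10M. Here the groups overlapped through WT10M replicate 5, which lay above all TG10M libraries. These sums consist mostly of mt-Co1 and mt-Atp8, with means of 8407 and 8451 FPKM against 21258 FPKM for the sum over all libraries. The 88 nuclear-encoded genes summed to 18929 to 21685 FPKM in TG10M, 18549 to 20797 FPKM in TG03M, 18488 to 22322 FPKM in WT10M and 19347 to 20720.3 FPKM in WT03M. The ratio of the mitochondrial to the nuclear sum was accordingly 0.926 to 1.51 in TG10M, 0.974 to 1.92 in TG03M, 0.745 to 1.35 in WT10M and 0.655 to 0.736 in WT03M. Estimated from FPKM and annotated transcript length, the mitochondrial messages took 1.82 to 2.77% of mapped fragments in TG03M and 1.27 to 1.39% in WT03M. No counts were used for this estimate, which can be off for a message as short as mt-Atp8.

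**Figure D1:**
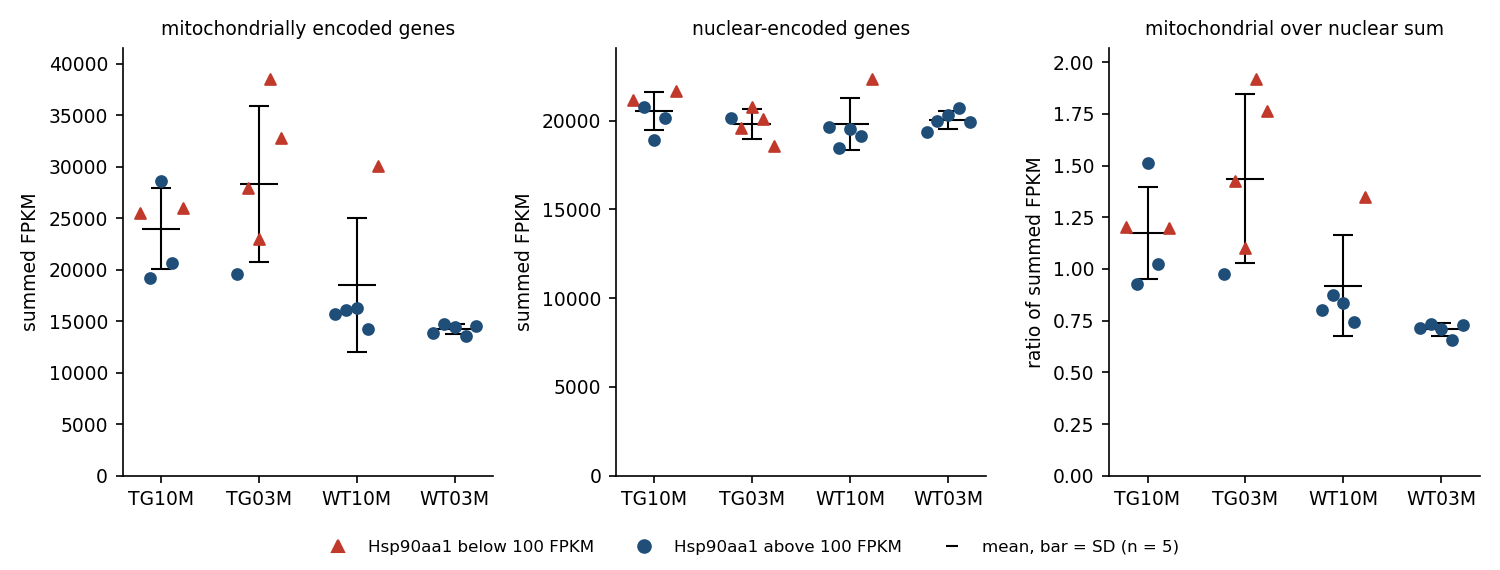
Summed FPKM of the 13 mitochondrially encoded genes (left) and of the 88 nuclear-encoded genes (middle), and the ratio of these sums (right), per library in TG10M, TG03M, WT10M and WT03M. Each point is a library, triangles mark Hsp90aa1 below 100 FPKM, and bars give the mean and SD (n = 5). The TG03M ratios sit at 0.974 and above, all over the WT03M ratios of at most 0.736, and WT10M replicate 5 stands over the rest of its group.

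Of the 13 mitochondrial genes, 6 rose in TG03M against WT03M and 0 fell at an adjusted p under 0.05 (limma over all 13722 tested genes, Benjamini-Hochberg). Of all tested genes, 0.277% rose and 0.299% changed in either direction. The median log2 fold change was 0.89 over the 13 mitochondrial genes, -0.02 over the 87 nuclear-encoded ones and -0.002 over all tested genes. The 6 genes belong to complexes I, III and V, and none of the 5 genes with a full annotated nuclear copy was among them. They include mt-Atp8, for which an unannotated copy was not examined.

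In complex III, mt-Cytb was at 671, 1274, 901, 1281 and 1414 FPKM in TG03M replicates 1 to 5, against 443, 473, 447, 380.4 and 420.1 FPKM in WT03M. The groups did not overlap, and TG03M replicate 1 was the nearest to the wild type. The means were 1108 ± 310.2 FPKM in TG03M and 433 ± 34.8 FPKM in WT03M (SD, n = 5 each), a log2 fold change of 1.31 ± 0.17 (SE, adjusted p = 0.00112). In complex I, mt-Nd1, which lies where the peripheral arm meets the membrane, was at 1446, 2263, 1775, 2822 and 2609 FPKM in TG03M, against 919, 989, 957, 878 and 916 FPKM in WT03M. Its log2 fold change was 1.19 ± 0.19 (adjusted p = 0.00644), again without overlap. The proton-pumping subunit mt-Nd4 was at 274, 503, 384, 587 and 619 FPKM in TG03M, against 188, 213, 207, 170.2 and 176 FPKM in WT03M, with a log2 fold change of 1.25 ± 0.19 (adjusted p = 0.00518). All 5 TG03M values of mt-Nd4 exceeded the wild-type ones.

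The other pumping subunits moved the same way with smaller changes. mt-Nd2 was at 333, 627, 447, 716 and 749 FPKM in TG03M, against 274, 298, 281, 257 and 258 FPKM in WT03M, and rose by 1.01 ± 0.17 on the log2 scale (adjusted p = 0.0163). mt-Nd5 was at 182, 313, 212, 346 and 393 FPKM in TG03M, against 141, 157, 156, 144 and 149 FPKM in WT03M, and rose by 0.89 ± 0.17 (adjusted p = 0.0307). For both genes, TG03M replicates 1 and 3 were the lowest of their group and still above WT03M. In complex V, mt-Atp8 was at 7211, 11897, 9064, 20025 and 15049 FPKM in TG03M, against 4868, 4833, 4889, 4652 and 5115 FPKM in WT03M. It rose by 1.28 ± 0.25 (adjusted p = 0.0324), and its TG03M values had the widest range of any of the 6 genes relative to their lowest value, with TG03M replicate 4 highest.

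The most abundant complex IV message moved less. mt-Co1 was at 8514, 9976, 8886, 10633 and 10390.4 FPKM in TG03M, against 5998, 6549, 6346, 6005 and 6223 FPKM in WT03M. The groups did not overlap, but the log2 fold change of 0.63 ± 0.15 missed the threshold (adjusted p = 0.106) and was -0.26 under quantile normalization, which gives the highest-ranked genes of all libraries the same values. With TG03M and WT03M fitted alone, without the spread of the 10-month groups, mt-Co1 was called at the same fold change (adjusted p = 0.00157), where 0.721% of all genes rose. mt-Nd6, the complex I subunit encoded on the opposite strand, was at 210.3, 375, 242, 416 and 469.9 FPKM in TG03M, against 197, 189.9, 227, 199 and 222 FPKM in WT03M. TG03M replicate 1 fell inside the wild-type range, and the log2 fold change was 0.66 ± 0.17 (adjusted p = 0.138). In all, 7 of 13 mitochondrial genes had every TG03M value above every WT03M value, a pattern that 2.01% of tested genes showed.

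The 5 genes with a full nuclear copy differed among themselves, and none was called at 3 months. Their log2 fold changes were 0.93 ± 0.38 for mt-Nd4l (adjusted p = 0.377), 0.30 ± 0.22 for mt-Atp6 (adjusted p = 0.672) and 0.23 ± 0.13 for mt-Co2 (adjusted p = 0.565). The remaining pair had 0.06 ± 0.22 for mt-Nd3 (adjusted p = 0.948) and -0.26 ± 0.17 for mt-Co3 (adjusted p = 0.627), and their signs changed with the libraries used. mt-Nd4l lay at 14.0 to 52.2 FPKM in TG03M and 6.65 to 22.6 FPKM in WT03M, a broad overlap at low level. mt-Atp6 lay at 5.40 to 8.28 FPKM in TG03M and 4.82 to 6.46 FPKM in WT03M, while mt-Atp8 beside it was among the genes that rose.

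The mitochondrial genes were also tested on the scale of the nuclear-encoded ones, after subtracting from every gene in each library the mean log2 value of the 87 nuclear-encoded genes. On this scale 7 of 13 rose in TG03M, where 0.27% of all genes rose. They are the same 6 genes and mt-Co1, with a relative log2 fold change of 0.65 ± 0.14 (adjusted p = 0.0415). mt-Cytb had the largest relative change, 1.33 ± 0.18 (adjusted p = 0.0017). At 10 months limma called 0 of 13 on this scale, against 0.24% of all genes, with 4 at an unadjusted p under 0.05.

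These calls rest mainly on the 4 TG03M libraries of the low-Hsp90aa1 set. With a term for that set in the fit, limma called 0 of 13 mitochondrial genes, 8 of them at an unadjusted p under 0.05, against 0.0292% of all genes called. With the high-Hsp90aa1 libraries alone 1 was called, mt-Co1 at 0.45 ± 0.06 (adjusted p = 0.0258), against 0.0656%. In that last comparison TG03M is 1 library, assumed to vary like the other groups. TG03M replicate 1 was above all 5 WT03M libraries for 10 of 13 mitochondrial genes and for 25 of 87 nuclear-encoded ones, where 17.7% of all tested genes stood so. It was below all 5 for mt-Nd3 and for 16 of 87 nuclear-encoded genes, against 17.8% of all tested genes. Its difference from the WT03M mean was 0.64 log2 units for mt-Cytb, 0.63 for mt-Nd1 and 0.45 for mt-Co1, with a median of 0.49 over the 8 genes without a full copy and 0.02 over the nuclear-encoded ones. The low-set TG03M libraries lay above replicate 1 by a further 0.84 log2 units for mt-Cytb, 0.69 for mt-Nd1 and 0.22 for mt-Co1. The part of the library set in the 3-month difference was not tested beyond these values.

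Markers of choroid plexus, an epithelium with many mitochondria that can come along in a dissection, were scattered between libraries. Their 8 genes, none of them at 0 in every library, summed to 13.0 to 1046 FPKM in TG03M (median 64.3) and to 8.60 to 38.2 FPKM in WT03M (median 19.5). TG03M replicate 1, the high-Hsp90aa1 library compared with WT03M above, had 850 FPKM, so that comparison is not free of a difference in these markers. limma called 0 of the 8 at 3 months, 4 of them at an unadjusted p under 0.05, with a median log2 fold change of 0.99, and their part in the result was not tested.

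**Figure D2:**
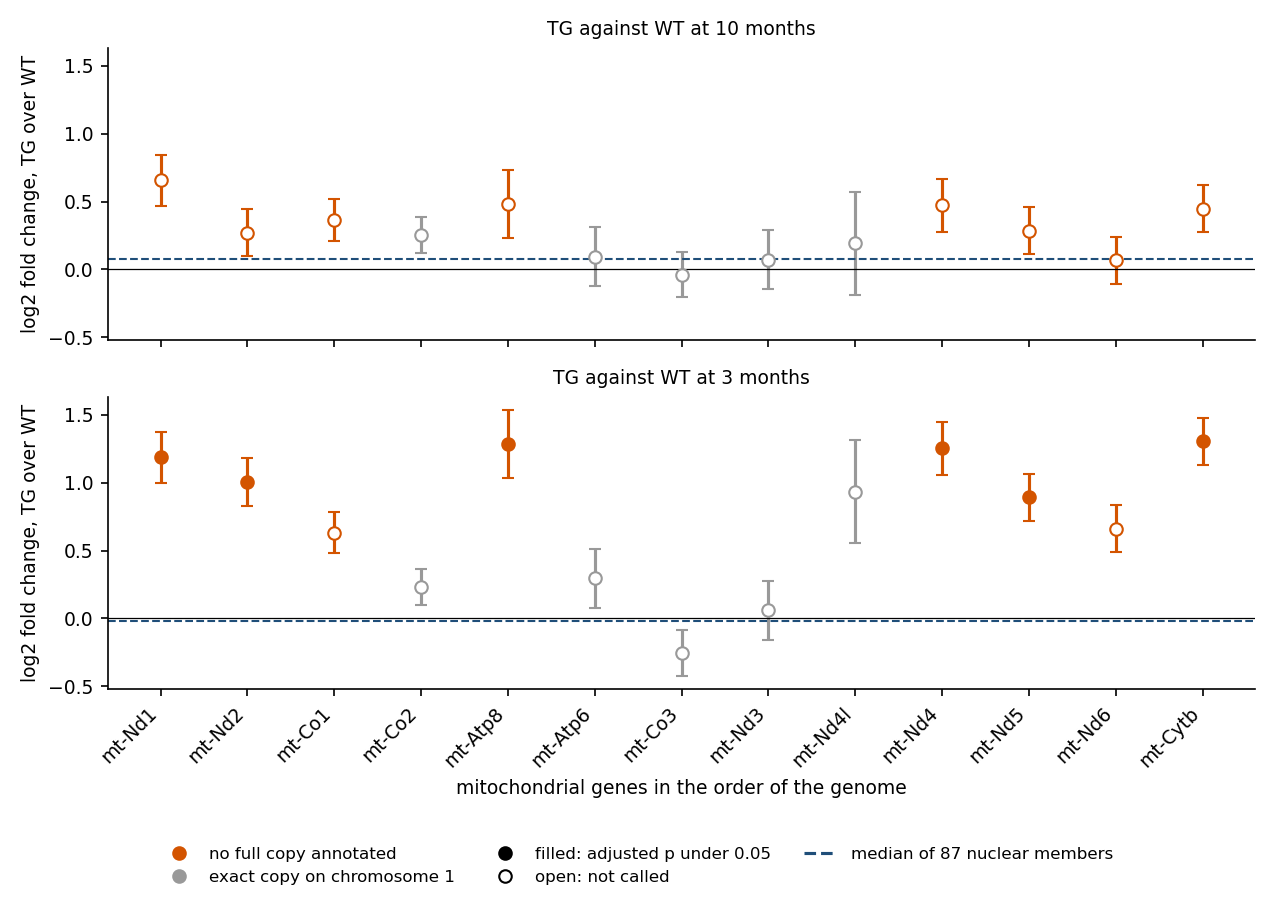
Log2 fold change of transgenic over wild-type cortex with its SE for the 13 mitochondrial genes in genome order, at 10 months (top) and 3 months (bottom). Orange points are genes without a full annotated nuclear copy, grey points the 5 with an exact annotated copy on chromosome 1. Filled points passed an adjusted p of 0.05, and the dashed line is the median of the 87 nuclear-encoded genes. At 3 months 6 genes are filled, from 0.89 for mt-Nd5 to 1.31 for mt-Cytb, and at 10 months none is.

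At 10 months the same direction was seen with smaller differences, and no mitochondrial gene passed the test. limma called 0 of 13, against 0.634% of all genes (0.583% higher), and 4 of 13 had an unadjusted p under 0.05. The median log2 fold change was 0.27 over the mitochondrial genes, 0.07 over the nuclear-encoded ones and 0.0006 over all genes. mt-Nd1 was at 1606, 1416, 1891, 1689 and 1492 FPKM in TG10M replicates 1 to 5, against 809, 1008, 1038, 751 and 1748 FPKM in WT10M, a log2 fold change of 0.66 ± 0.19 (adjusted p = 0.129). mt-Cytb was at 577, 657, 850.4, 754 and 649.7 FPKM in TG10M, against 459, 495, 508, 404 and 718 FPKM in WT10M, a log2 fold change of 0.45 ± 0.17 (adjusted p = 0.254). mt-Co1 was at 11182, 8627, 8899, 8648 and 11807 FPKM in TG10M, against 6915, 6379, 6634, 6488 and 13045 FPKM in WT10M, a log2 fold change of 0.36 ± 0.15 (adjusted p = 0.293). In each of the 3 genes the overlap came from WT10M replicate 5, and without it all TG10M values exceeded all WT10M values.

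One library therefore decided the outcome at 10 months. Without WT10M replicate 5, the low-Hsp90aa1 libraries of that age are TG10M replicates 1 and 5 alone, so set and genotype are mixed in that fit. Leaving out WT10M replicate 5 gave 4 mitochondrial genes higher in TG10M, against 5.66% of all genes: mt-Nd1 at 0.85 ± 0.15 (adjusted p = 0.00380), mt-Co1 at 0.56 ± 0.09 (adjusted p = 0.00239), mt-Nd4 at 0.63 ± 0.18 (adjusted p = 0.0314) and mt-Cytb at 0.57 ± 0.17 (adjusted p = 0.0339). Without all 3 libraries that lie apart, 2 genes were called, mt-Nd1 and mt-Co1, against 1.28%. Within the high-Hsp90aa1 set, TG10M replicates 2 to 4 against WT10M replicates 1 to 4, 6 of 13 rose, against 1.36% of all genes. mt-Nd1 then had 0.89 ± 0.11 (adjusted p = 0.00424), mt-Cytb 0.69 ± 0.10 (adjusted p = 0.00537), mt-Nd4 0.69 ± 0.12 (adjusted p = 0.0158) and mt-Co1 0.40 ± 0.04 (adjusted p = 0.00108), and mt-Nd2 and mt-Nd5 were the other 2. In the same libraries 8 of 13 mitochondrial genes did not overlap, against 8.78% of all genes. Of the nuclear-encoded ones 16 of 87 lay higher without overlap and 4 lower, the last against 9.08% of all genes. The high-set libraries also differed in Lars2, listed further below as a sign of cytosolic ribosomal RNA. It was at 654, 1840 and 600 FPKM in TG10M replicates 2 to 4 and at 6.61 to 14.3 FPKM in WT10M replicates 1 to 4. Its part in these calls was not tested. WT10M replicate 5 itself lay above the other 4 WT10M libraries for 11 of 13 mitochondrial and 63 of 87 nuclear-encoded genes, against 35.8% of all genes. Within the low set the order was the reverse. WT10M replicate 5 lay above TG10M replicates 1 and 5 for all 13 mitochondrial genes, where 35.8% of all genes did so, and the median TG10M minus WT10M difference over the 8 genes without a full copy was -0.21 there and 0.56 in the high set. These 3 libraries give no test.

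No mitochondrial gene was called with age in either genotype. Of the 13 mitochondrial genes 0 were called between WT10M and WT03M (limma), 0 of them at an unadjusted p under 0.05, against 0.0656% of all genes. Their median log2 fold change was 0.26. Without WT10M replicate 5 mt-Nd1 overlapped, at 751 to 1038 FPKM in WT10M replicates 1 to 4 and 878 to 989 FPKM in WT03M, while the ratio of the mitochondrial to the nuclear sum did not, at 0.745 to 0.872 in WT10M replicates 1 to 4 and 0.655 to 0.736 in WT03M. In transgenic cortex limma called 0 of 13 between TG10M and TG03M, against 0.845% of all genes, with 4 at an unadjusted p under 0.05 and a median log2 fold change of -0.32. mt-Cytb had the smallest p, with a log2 fold change of -0.63 ± 0.17 (adjusted p = 0.0888), and mt-Nd2 followed at -0.60 ± 0.17 (adjusted p = 0.107), whereas mt-Co1 was at 0.01 ± 0.15 (adjusted p = 0.969). The difference between the genotype effects at 10 and at 3 months was tested as an interaction, in which limma called 0 of 13, against 0.0364% of all genes, with 6 at an unadjusted p under 0.05 and a median of -0.59. For mt-Cytb it was -0.86 ± 0.25 (adjusted p = 0.724). The genotype effect is thus not shown to differ between the 2 ages.

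The mitochondrial genes did not move as a block: the balance between mt-Cytb and mt-Co1, both on the plus strand, differed between libraries. The ratio of their FPKM was 0.0788, 0.128, 0.101, 0.120 and 0.136 in TG03M replicates 1 to 5, against 0.0739, 0.0722, 0.0704, 0.0634 and 0.0675 in WT03M. All TG03M ratios were above all WT03M ratios, the 4 low-Hsp90aa1 libraries furthest. Among high-Hsp90aa1 libraries the ratio was 0.0761 to 0.0956 in the 4 transgenic ones and 0.0623 to 0.0776 in the 9 wild-type ones, so that the groups overlapped. In TG10M replicates 1 and 5 and WT10M replicate 5 it was only 0.0516 to 0.0550, below every other library. The ratio of mt-Nd6, from the other strand, to mt-Cytb was 0.301 to 0.382 in the high-Hsp90aa1 transgenic libraries, against 0.401 to 0.583 in the wild-type ones. It was 0.268 to 0.332 in the low-Hsp90aa1 TG03M libraries and 0.445 to 0.476 in the 3 that lie apart. Strand-specific counting is not given in the sources used here, and mt-Nd6 overlaps mt-Nd5 on the other strand by 14 bases. Of the stretches of 50 bases in mt-Co1, 51.1% also occur outside the mitochondrial genome, so part of its reads is uncertain. The part of read assignment in its ratio to mt-Cytb was not tested. These ratios were examined after the values were seen and carry no test.

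**Figure D3:**
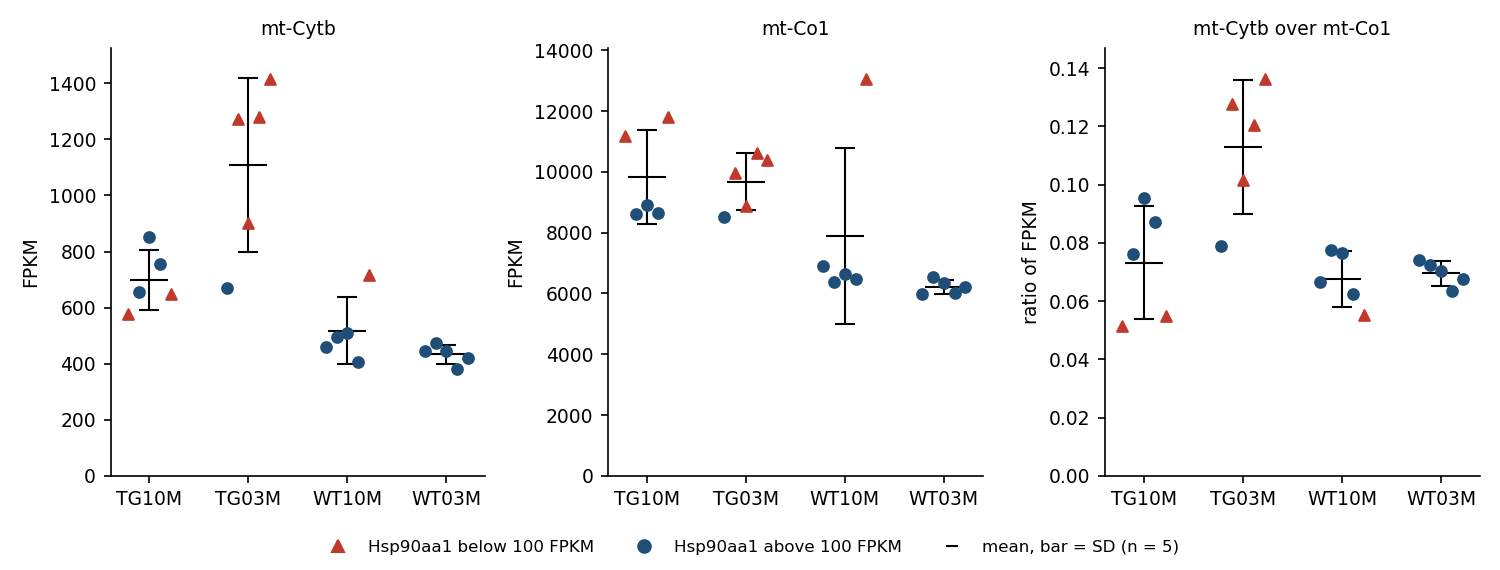
FPKM of mt-Cytb (left) and mt-Co1 (middle) and the ratio of mt-Cytb to mt-Co1 (right), per library in TG10M, TG03M, WT10M and WT03M. Triangles mark Hsp90aa1 below 100 FPKM and bars give the mean and SD (n = 5). The low-Hsp90aa1 libraries have ratios of 0.101 to 0.136 in TG03M and of 0.0516 to 0.0550 at 10 months (TG10M replicates 1 and 5 and WT10M replicate 5). The other wild-type libraries lie between, at 0.0623 to 0.0776.

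In TG10M, TG03M and WT10M, but not in WT03M, replicates were less alike for the mitochondrial genes than over all genes. The median SD of log2 values over the 8 genes without a full copy was 0.218 in TG10M, 0.482 in TG03M, 0.344 in WT10M and 0.0792 in WT03M. Over the 87 nuclear-encoded genes it was 0.127 in TG10M, 0.0908 in TG03M, 0.141 in WT10M and 0.0634 in WT03M, and over all tested genes 0.137 in TG10M, 0.124 in TG03M, 0.144 in WT10M and 0.116 in WT03M.

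Nuclear-encoded genes changed little with genotype. In TG03M against WT03M 1 of 87 rose and 0 fell, against 0.277% and 0.0219% of all genes, and in TG10M against WT10M again 1 of 87 rose and 0 fell, against 0.583% and 0.051%. Both times it was Atp5d, the delta subunit of the central stalk of ATP synthase. Atp5d was at 160.0, 164, 164, 167 and 173 FPKM in TG10M and 156, 160.4, 169.9, 176 and 179.8 FPKM in TG03M, against 129, 143, 131, 130.3 and 162 FPKM in WT10M and 138, 143, 136, 128 and 135 FPKM in WT03M. All 10 transgenic values lay above all wild-type ones except WT10M replicate 5. Its log2 fold change was 0.26 ± 0.06 in the older pair of groups (adjusted p = 0.0454). In the younger pair it was 0.30 ± 0.06 (adjusted p = 0.0273). Both lie close to the threshold: the call was lost in 17 of 20 fits that left out 1 library at 10 months and in 8 of 20 at 3 months, while the fold change stayed within 0.23 to 0.31 and 0.28 to 0.33.

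By complex, the median log2 fold change at 3 months was -0.01 for complex I, -0.07 for complex III, -0.02 for complex IV, -0.05 for complex V and -0.02 for the assembly factors. At 10 months it was 0.09, 0.03, 0.07, 0.07 and 0.05 in the same order, with 61 of 87 genes above 0. At 3 months 4 nuclear-encoded genes had all TG03M values above WT03M (Atp5d, Atp5g1, Cox6a1 and Ndufa10) and 3 had all below (Ndufa8, Ndufs6 and Uqcrq). Of all genes 2.01% and 2.47% did so. Cox6a1, a complex IV subunit, was at 504, 551, 583, 606 and 543 FPKM in TG03M, against 483, 491, 472, 485 and 457 FPKM in WT03M (log2 fold change 0.22 ± 0.06, adjusted p = 0.125). Uqcrq, a small subunit of complex III, was at 71.0, 72.7, 76.5, 82.7 and 87.5 FPKM in TG03M, against 104, 91.7, 93.8, 88.0 and 113 FPKM in WT03M (-0.32 ± 0.22, adjusted p = 0.631). Neither was called.

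**Figure D4:**
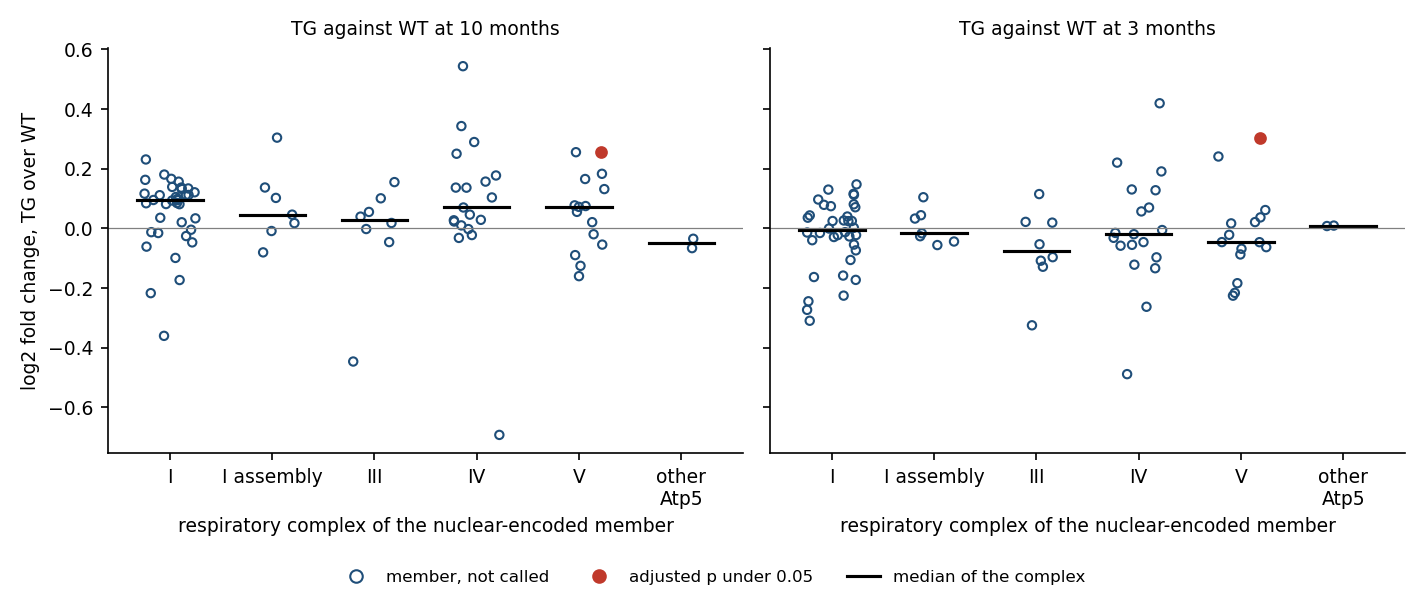
Log2 fold change of transgenic over wild-type cortex for the 87 tested nuclear-encoded genes by complex, at 10 months (left) and 3 months (right). Each circle is a gene, filled where the adjusted p is under 0.05, and black lines are medians of a complex, which lie between -0.07 and 0.09 for complexes I, III, IV and V. Atp5d in complex V is the filled gene on both sides.

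The same libraries that moved the mitochondrial counts moved these. The 3 libraries that lie apart are all of 10-month cortex, so leaving them out changes the spread used at 3 months and no fold change there. Without them, 8 nuclear-encoded genes were called at 3 months, against 1.53% of all genes higher and 1.92% lower. Atp5d, Atp5g1 (a gene for the c ring of ATP synthase) and Cox6a1 rose, and the complex I subunits Ndufa2, Ndufa8, Ndufb2 and Ndufs6 and the complex III subunit Uqcrq fell. Cox6a1 then had 0.22 ± 0.04 (adjusted p = 0.00556) and Uqcrq -0.32 ± 0.08 (adjusted p = 0.0259). At 10 months leaving out WT10M replicate 5 left low-Hsp90aa1 libraries in TG10M alone, which mixes set and genotype. That fit gave 18 calls, 16 higher and 2 lower, against 5.66% and 6.0% of all genes. The 16 include 9 subunits of complex I such as Ndufs7 at 0.20 ± 0.05 (adjusted p = 0.0104) and 4 of complex V such as Atp5o at 0.22 ± 0.04 (adjusted p = 0.00571), and the 2 lower ones are Uqcrq at -0.67 ± 0.18 (adjusted p = 0.0219) and Cox6b2 at -0.97 ± 0.23 (adjusted p = 0.0129). Within the high-Hsp90aa1 set the calls at 10 months were 5, against 2.4% of all genes. Atp5d at 0.31 ± 0.04 (adjusted p = 0.00537), Cox6a1 at 0.21 ± 0.03 (adjusted p = 0.0102), Atp5o and Ndufa6 rose, and Cox6b2 fell. Uqcrq, at -0.30 log2 units in this set, was not called. Over all high-Hsp90aa1 libraries at both ages, the 4 transgenic ones were above the 9 wild-type ones for Atp5d, Cox6a1 and Ndufs7 and below them for Atp5l, Cox6b2 and Uqcrq, or 3 of 87 each way, where 1.57% and 2.18% of all genes did so. The same comparison separated 7 of 13 mitochondrial genes, all upward.

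Between ages limma called 0 of 87 nuclear-encoded genes in the wild type and 0 of 87 in transgenic cortex, against 0.0656% and 0.845% of all genes. At an unadjusted p under 0.05 there were 1 and 8 of 87, against 922 and 2203 of all 13722 genes. The interaction called 0, with 4 at an unadjusted p under 0.05, against 0.0364% of all genes called. In the wild type the smallest p-values belonged to the complex I genes Ndufs6 (-0.23 ± 0.10, adjusted p = 0.689), Ndufaf4 and Ndufb10. In transgenic cortex they belonged to Cox7b2 (0.71 ± 0.20, adjusted p = 0.10), Ndufb2 and Ndufab1, and in the interaction to Ndufb6, Ndufa2 and Ndufb2. Cox7b2, an isoform of a complex IV subunit, was at 1.21, 1.17, 1.39, 1.17 and 1.91 FPKM in TG10M, against 0.661, 0.623, 0.562, 0.641 and 0.654 FPKM in TG03M, without overlap at very low levels. Ndufab1, the mitochondrial acyl carrier protein that is also a complex I subunit, was at 15.1, 33.4, 31.5, 40.3 and 16.1 FPKM in TG10M, against 40.1, 40.5, 39.2, 40.2 and 36.4 FPKM in TG03M (-0.62 ± 0.24, adjusted p = 0.216). Its low values were those of replicates 1 and 5.

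Those replicates and WT10M replicate 5 form the set that lies apart, and its nuclear-encoded pattern was uneven. Against the other 17 libraries, 31 nuclear-encoded genes and mt-Co1 were higher in all 3, where 9.19% of tested genes were, and 6 nuclear-encoded genes were lower, where 14.0% were. The 6 are Atp5g3 and Atp5j of complex V, Ndufa8, Ndufab1 and Ndufs6 of complex I, and Uqcrq of complex III. Ndufab1 lay at 15.1 to 17.6 FPKM in the 3 libraries, against 31.5 to 49.1 FPKM in the other 17, and Uqcrq at 37.6 to 42.1 FPKM, against 65.5 to 113 FPKM. Subunits of one complex thus went in opposite directions in the same libraries. The set was found from the values of other genes, and no test is given.

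**Figure D5:**
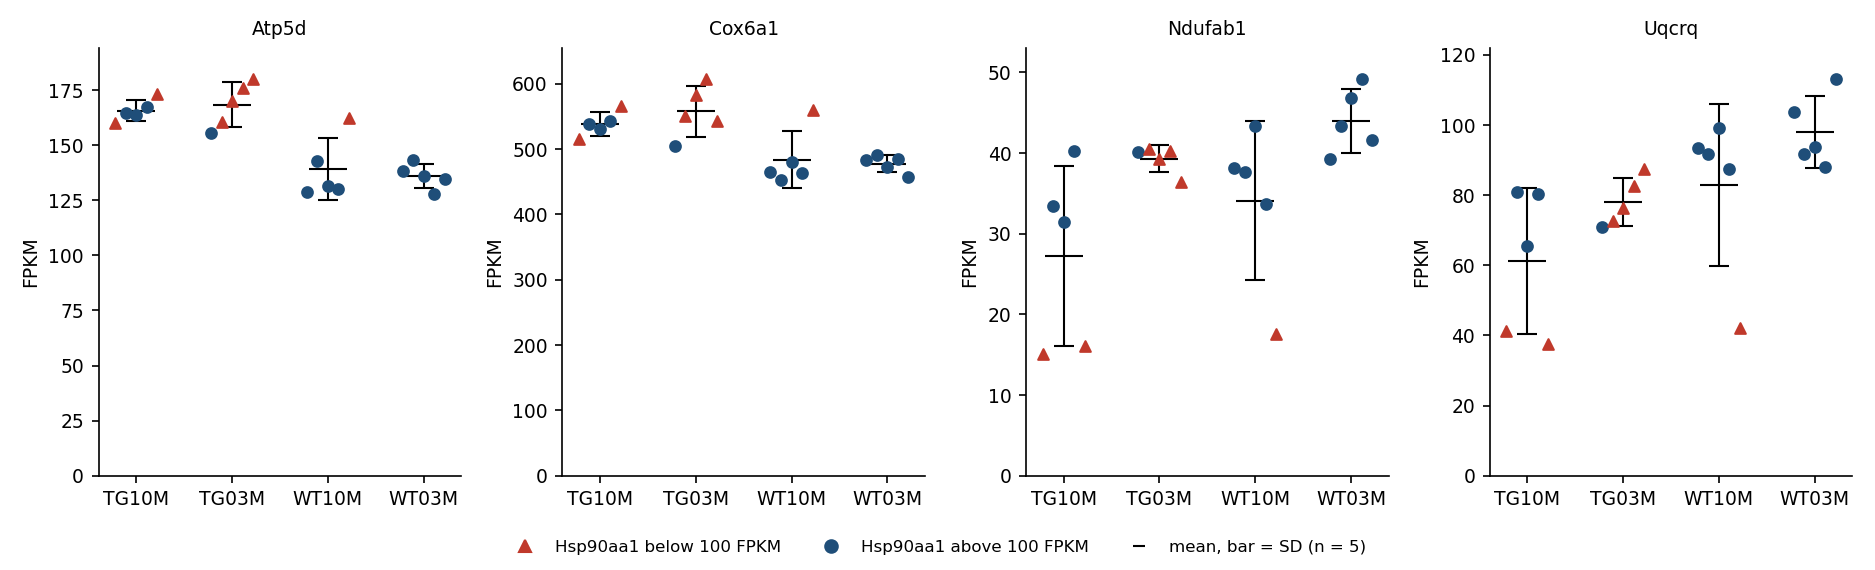
FPKM per library of the nuclear-encoded genes Atp5d, Cox6a1, Ndufab1 and Uqcrq in TG10M, TG03M, WT10M and WT03M. Triangles mark Hsp90aa1 below 100 FPKM and bars give the mean and SD (n = 5). All TG03M values of Atp5d and Cox6a1 lie above WT03M, WT10M replicate 5 (162 and 559 FPKM) lies among the transgenic values, and Ndufab1 and Uqcrq fall to 15.1 to 17.6 and 37.6 to 42.1 FPKM in the 3 libraries that lie apart.

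The cortex used the ubiquitous isoforms of subunits that have tissue-specific versions, at levels per length. Cox8a (1109 FPKM on average), Cox4i1 (997 FPKM) and Cox6c (852 FPKM) were the 3 most abundant nuclear-encoded messages, and Cox8c, Cox7b2 and Ndufa4l2 the 3 least abundant. Cox6a1 averaged 514 FPKM and Cox6a2, the heart and muscle isoform, 6.98 FPKM. Cox7a2 averaged 256 FPKM and the muscle isoform Cox7a1 12.3 FPKM, and the related Cox7a2l, a factor in supercomplex formation, 167 FPKM. Cox4i2, the isoform of lung and of oxygen sensing, averaged 2.53 FPKM, and the muscle isoform Cox8b 3.93 FPKM. Cox6b1 averaged 696 FPKM and its testis isoform Cox6b2 2.03 FPKM, and Ndufa4 626 FPKM against 1.63 FPKM for its hypoxia-inducible relative Ndufa4l2. Cox6a2 was at 9.84, 7.88, 7.23, 9.34 and 8.93 FPKM in TG10M, against 5.67, 4.42, 6.65, 4.40 and 8.39 FPKM in WT10M. WT10M replicate 5 overlapped the transgenic values, and the log2 fold change was 0.54 ± 0.16 (adjusted p = 0.132). Skeletal muscle markers summed to 6.79 to 15.2 FPKM over all libraries, with 2 of 8 abundant enough to test and 0 called by limma at either age, 0 of them at an unadjusted p under 0.05.

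Promoters are shown for 2 nuclear genes whose values in TG03M all lay above WT03M, since NRF1, GABPA and YY1 are the textbook regulators of nuclear genes for respiration. The RefSeq promoter (GRCm38.p6, 250 bases before to 50 after the start) of Cox6a1 (chr5:115348909-115349208, minus strand) holds 2 matches to the NRF1 motif (GCGC, any base, TGCGC), in capitals, and that of Atp5d (chr10:80142065-80142364, plus strand) none of the NRF1 motif, CCGGAAGT (GABPA) and AANATGGCG (YY1), all searched on both strands.
Cox6a1: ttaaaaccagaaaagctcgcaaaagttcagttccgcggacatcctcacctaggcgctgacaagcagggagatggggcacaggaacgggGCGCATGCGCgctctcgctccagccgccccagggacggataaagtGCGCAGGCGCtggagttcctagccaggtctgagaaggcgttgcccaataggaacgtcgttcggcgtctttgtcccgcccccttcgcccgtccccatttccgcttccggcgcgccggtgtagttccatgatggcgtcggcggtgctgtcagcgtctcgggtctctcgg
Atp5d: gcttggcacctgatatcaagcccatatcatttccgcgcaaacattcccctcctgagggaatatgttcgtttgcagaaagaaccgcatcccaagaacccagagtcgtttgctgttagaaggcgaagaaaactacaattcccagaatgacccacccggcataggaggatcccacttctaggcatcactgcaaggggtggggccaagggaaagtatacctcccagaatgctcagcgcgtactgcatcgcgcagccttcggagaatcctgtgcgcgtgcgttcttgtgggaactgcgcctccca
Of the 88 nuclear-encoded genes 73 had a promoter in the table. The NRF1 motif was in 17 of them (23.3%), against 10.9% of 10268 other tested genes and 5.19% of all 27025 genes in the table. The YY1 motif was in 11 (15.1%, against 5.49% and 2.76%) and the GABPA motif in 5 (6.85%, against 8.32% and 4.31%). A match describes the letters and does not show binding.

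Few genes around the pathway were called, in lists drawn up for these comparisons. At 3 months limma called 0 of 8 genes of complex II, 0 of 6 further subunits including cytochrome c, 0 of 17 genes of mitochondrial DNA replication and transcription, 0 of 21 of mitochondrial RNA processing, 0 of 12 regulators of mitochondrial biogenesis, 0 of 17 other assembly factors and 0 of 15 markers of mitochondrial mass, where 0.299% of all genes were called. Of these genes 3 of RNA processing, 1 of the assembly factors and 2 of mitochondrial mass had an unadjusted p under 0.05, and the medians of the log2 fold change lay between -0.09 and 0.01. Of 25 complex IV assembly genes 1 rose, Higd2a, with 92.1 ± 4.23 FPKM in TG03M and 75.5 ± 2.22 FPKM in WT03M (log2 fold change 0.28 ± 0.05, adjusted p = 0.0198). Of 77 mitochondrial ribosome genes 1 rose, Mrps15 (0.52, adjusted p = 0.0458). At that share of all genes, 0 or 1 call in lists of these sizes is not a result about the lists. At 10 months limma called 0 genes of these lists, against 0.634% of all genes, with 9 of 77 ribosome genes and at most 2 in any other list at an unadjusted p under 0.05. Lars2 encodes the mitochondrial leucyl-tRNA synthetase, but it was listed here as a sign of cytosolic ribosomal RNA, whose reads can be assigned to it, so its values are not read as those of the synthetase. It was higher at 10 months, at 66.5 to 1840 FPKM in TG10M and 6.61 to 91.2 FPKM in WT10M (log2 fold change 4.64 ± 0.84, adjusted p = 0.0118). At 3 months it was at 18.4 to 204 FPKM in TG03M and 7.69 to 9.87 FPKM in WT03M (2.98 ± 0.84, adjusted p = 0.164).

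Among marker genes of cell types, 3 of 8 for microglia and 2 of 8 for astrocytes rose at 10 months and 0 fell, against 0.583% and 0.051% of all genes. The microglial markers summed to 345 to 449 FPKM in TG10M and 244 to 357 FPKM in WT10M, and the astrocyte markers to 933 to 1113 FPKM in TG10M and 811 to 852 FPKM in WT10M. The 9 markers of striatum, a neighbouring region, summed to 190 to 462 FPKM in TG10M and 416 to 536 FPKM in WT10M, with a median log2 fold change of -0.60; limma called 0, and 5 had an unadjusted p under 0.05. At 3 months they summed to 198 to 513 FPKM in TG03M and 190 to 507 FPKM in WT03M. Marker sums without overlap at 3 months were those of oligodendrocytes (1657 to 1989 FPKM in TG03M, 1434 to 1594 FPKM in WT03M) and inhibitory neurons (599 to 650 and 531 to 585 FPKM). Of these lists limma called 0 of 8 each, against 0.299% of all genes, with 3 and 2 at an unadjusted p under 0.05. Their median log2 fold changes were 0.10 and -0.008. The sums of the other marker lists overlapped at that age. The 10 markers of excitatory neurons of the cortex, used to check the tissue label, were all detected, at a sum of 652 to 1169 FPKM over all libraries. The lowest sum, 652 FPKM, was that of WT10M replicate 5. TG10M replicates 1 and 5, the lower of them at 677 FPKM, also lay below the 896 to 1061 FPKM of the high-Hsp90aa1 libraries. TG03M, mostly of the low set, was at 953 to 1169 FPKM. The part of all these markers in the mitochondrial and nuclear-encoded values was not tested.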

How the data were processed

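Total RNA of cerebral cortex with an RNA integrity number above 7 was sequenced on an Illumina HiSeq 4000, per the labels' protocols, in 20 libraries of 4 groups of 5. The submitters' processing notes name CASAVA, TopHat2, Cuffdiff and DESeq2 and the builds GRCm38 and mm10, with no versions or roles. The authors deposited FPKM per transcript for 50660 messenger RNA transcripts, per the file headers, and no counts were used here. How reads with several matches were assigned, and whether counting used strand, is not given in the sources used here. All 27 symbols that a spreadsheet had turned into dates were restored from the gene identifiers. FPKM scales with all fragments of a library, so a rise of abundant messages lowers the others.

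From there, FPKM was summed per gene identifier, and 13722 genes with a mean of at least 0.5 FPKM were tested as log2(FPKM + 0.5), a scale that understates the change of low genes. One model of the 4 group means was fitted with limma 3.58.1 (lmFit, eBayes with trend) in R 4.3.3, and p-values were adjusted by Benjamini and Hochberg over all tested genes for each of 5 contrasts: TG against WT at each age, 10 against 3 months in each genotype, and their interaction. A gene is called at an adjusted p under 0.05, and errors beside log2 fold changes are SE. The script was tested on simulated data. Depth was estimated from 1815 single-transcript genes of more than 4000 bases, of which 52 to 76 low values per library were used. The step was taken from such low values themselves, and 76.8 to 93.3% of them lay within 0.1 of whole fragments. This gave a depth of about 22300000 to 30100000 fragments. Copies of mitochondrial genes were sought among GENCODE M21 transcripts with Biopython 1.88.

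The members and lists were chosen with earlier results of these data known. The genes named are all mitochondrial ones, nuclear-encoded ones that were called (or the 3 with the smallest p where none was), isoforms with tissue-specific versions, the 3 most and least abundant nuclear-encoded genes, and up to 3 genes of each further list. Uqcrq, Ndufa6, Ndufa8, Ndufa10, Ndufs7, Atp5g1, Atp5g3, Atp5j, Atp5l and Atp5o, and the values of Ndufa2 and Ndufs6 outside their comparison, were named after their values were seen. Alternatives were other pseudocounts, filters and scalings, fits of only the 2 groups compared, a block for the replicate number, each library left out, and the library sets (the high-Hsp90aa1 libraries alone were added after seeing the data). The deposited table of long noncoding RNA served only to describe the libraries.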

Additional observations from a re-analysis of the deposited data

Results flagged for a closer look

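A library stood apart from the other 4 of its group, by Dixon's criterion with a critical value of 0.71 for 5 samples, in 20 of 160 combinations of a measure and a group. Chance flags about 1 in 20 groups, and these measures are not independent of each other. Of the 20, 12 belong to WT10M replicate 5. In that library the mitochondrial sum was 30045 FPKM, against 14254 to 16315 FPKM in the other WT10M libraries, and the ratio to the nuclear sum was 1.35, against 0.745 to 0.872. Among single mitochondrial genes it was high for mt-Atp8 (11642 FPKM, against 4668 to 6304), mt-Co1 (13045 FPKM, against 6379 to 6915) and mt-Nd1 (1748 FPKM, against 751 to 1038). It was also high for mt-Nd3 (1518 FPKM, against 964 to 1086), mt-Nd4 (359 FPKM, against 182 to 230.3) and mt-Nd5 (274 FPKM, against 161 to 183). Of the nuclear-encoded genes it was high for the complex IV subunits Cox6a1 (559 FPKM, against 452 to 479.6), Cox6b1 (840.2 FPKM, against 640.2 to 694) and Cox8a (1419 FPKM, against 931 to 1036), and low for Ndufs6 of complex I (81.7 FPKM, against 111 to 119.8).

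The other 8 are spread over 8 libraries. In TG10M, mt-Nd4l reached 39.6 FPKM in replicate 3, against 13.3 to 17.3 FPKM in the others, and mt-Nd6 reached 305 FPKM in replicate 5, against 242 to 257 FPKM. In TG03M, Ndufaf4 was at 11.8 FPKM in replicate 1, against 15.2 to 16.6 FPKM, and Ndufb10 at 139.9 FPKM in replicate 5, against 164 to 173 FPKM. In WT10M, Ndufb2 was at 148 FPKM in replicate 2, against 171 to 174 FPKM. In WT03M, mt-Co3 was at 7.38 FPKM in replicate 4, against 8.33 to 8.71 FPKM, Ndufb10 at 139.5 FPKM in replicate 5, against 159 to 166 FPKM, and Cox4i2 at 1.69 FPKM in replicate 2, against 2.78 to 2.98 FPKM.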

How the results depend on the processing

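Other pseudocounts, a filter at a mean of 2 FPKM and median centring kept every count of called genes within 1.5 times its value. At 3 months the 6 mitochondrial calls became 1 with the high-Hsp90aa1 libraries alone and 0 with a term for low Hsp90aa1, and the 7 calls relative to nuclear-encoded genes became 0 under both. The 1 nuclear-encoded call at 3 months became 3 under quantile normalization, 2 when libraries were scaled to the sum of the other genes, 3 with the compared groups alone, 8 without the 3 libraries apart, and 0 with the Hsp90aa1 term and with the high-Hsp90aa1 libraries alone (21 and 9 at an unadjusted p under 0.05 in limma). At 10 months the 0 mitochondrial calls became 2 without the 3 libraries apart and 6 with the high-Hsp90aa1 libraries alone, which gave 4 relative to nuclear-encoded genes. The 1 nuclear-encoded call at 10 months became 0 with no filter, under quantile normalization and with the compared groups alone (13, 13 and 7 at an unadjusted p under 0.05), 3 without the 3 libraries apart and 5 with the high-Hsp90aa1 libraries alone. Between TG10M and TG03M, where neither class had a call, the Hsp90aa1 term gave 1 mitochondrial and 20 nuclear-encoded calls (14 higher, 6 lower), where 6.78% of all genes were called higher and 10.1% lower, and the compared groups alone gave 1 nuclear-encoded call, Cox7b2. Beyond the libraries left out, the cause was not tested.

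Leaving out 1 library at a time gave 3 to 7 mitochondrial and 0 to 2 nuclear-encoded calls at 3 months and 3 to 8 relative ones. The mitochondrial count was 3 without TG03M replicate 2, 4 or 5 or WT03M replicate 4 or 5. At 10 months it gave 0 to 4, 0 to 18 and 0 to 2 in the same order, the highest each time without WT10M replicate 5. Between TG10M and TG03M it gave 0 to 2 mitochondrial calls, 2 of them without TG03M replicate 1, and all other counts stayed at 0. mt-Cytb, mt-Nd1 and mt-Nd4 were called at 3 months in all 20 such fits, with mt-Cytb at 1.21 to 1.48 log2 units (highest adjusted p = 0.00697), while mt-Atp8 was lost in 8, mt-Nd5 in 7 and mt-Nd2 in 5.

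Directions turned round mainly for genes with a full nuclear copy. Under quantile normalization mt-Co1 was at -0.26 at 3 months and -0.0656 at 10 months and mt-Nd3 at -0.00456 at 10 months. mt-Co3 turned to 0.0660 at 3 months with the high-Hsp90aa1 libraries alone, and at 10 months to 0.0942 with them, 0.0942 without the 3 libraries apart and 0.00564 with the Hsp90aa1 term. mt-Nd3 turned to -0.28 with the term and -0.29 with the high-Hsp90aa1 libraries alone at 3 months, and to -0.0126 with the term at 10 months, where mt-Nd6 turned to -0.0239. With 1 library left out, the 10-month log2 fold change ranged from -0.14 to 0.27 for mt-Atp6, -0.23 to 0.0858 for mt-Co3, -0.0775 to 0.22 for mt-Nd3, -0.0655 to 0.33 for mt-Nd4l and -0.00609 to 0.18 for mt-Nd6, and that of mt-Nd3 at 3 months from -0.12 to 0.20.

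With the replicate number as a block, 6 mitochondrial and 1 nuclear-encoded genes were called at 3 months and 0 and 1 at 10 months, as without it. The numbers do not pair the samples: over 30 same-numbered pairs the correlation of deviations ran from -0.425 to 0.660, 5 of 30 were over 0.1, and 5 of 20 libraries correlated best with their own number. Depth limits the low isoforms. The values of mt-Co2, mt-Co3, mt-Atp6, mt-Nd3 and mt-Nd4l stay uncertain through their copies, as do part of the reads of mt-Co1 and mt-Nd4. An unannotated copy of mt-Atp8 was not examined. There is no genome here to trace reads between the mitochondrial genes and their copies.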
